A study of Homo sapiens with 12 samples.

Results

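The genes of lactate and pyruvate handling were described in 2 human glioma cell lines, U251 and U87, with and without artesunate. The 10 members were chosen by gene symbol, as LDHA, LDHB, SLC16A1, SLC16A3, PDK1, PDK2, PDK3, PDK4, MPC1 and MPC2, out of 58302 genes in the deposited table. Each symbol had 1 row, and all 10 genes passed the filter on low counts that kept 17150 genes for testing. The 4 groups, of 3 libraries of polyadenylated RNA each, were U251 cells given 180 µM artesunate for 24 h, U251 cells without it, U87 cells given 24.08 µM artesunate for 24 h, and U87 cells without it. The labels carry day 9 for all samples. Control samples are labelled with culture medium, and a solvent control is not stated. Since the labelled dose differs between the lines, line and dose cannot be told apart in any comparison of the artesunate effect between them. The labels do not say whether the 3 libraries of a group came from separate cultures, so p-values measure the spread between these libraries, which may be technical. Artesunate is a derivative of artemisinin used against malaria; the treatment label names artesunate, while the extraction text names artemisinin.

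Pyruvate, the end product of glycolysis, is either reduced to lactate in the cytosol or carried into mitochondria and oxidised. Lactate dehydrogenase interconverts pyruvate and lactate, and is a tetramer of the LDHA and LDHB subunits. The proton-coupled monocarboxylate transporters MCT1 (SLC16A1) and MCT4 (SLC16A3) move lactate across the plasma membrane, and MCT4 is known as the exporter of strongly glycolytic cells. The mitochondrial pyruvate carrier, a dimer of MPC1 and MPC2, brings pyruvate into the matrix, where the pyruvate dehydrogenase complex turns it into acetyl-CoA. The pyruvate dehydrogenase kinases PDK1 to PDK4 phosphorylate and inhibit that complex. LDHA, SLC16A3 and PDK1 are textbook targets of the hypoxia-inducible factors, and gliomas are known for making lactate in the presence of oxygen.

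The libraries held between 13631985 and 17314284 counts, and 3 counts correspond to between 0.168 and 0.219 CPM. All CPM (counts of a gene relative to the library size) are scaled by trimmed-mean (TMM) library sizes. Replicate 2 of the U87 artesunate group stood apart from its group: its log2 CPM correlated with those of the other two at r = 0.972 and 0.975, against 0.981 to 0.987 within all other pairs of replicates. For the 10 members, the value without this library is given where leaving it out changes a call or moves a called value by over 1.5 times. Of 10 glial and glioma markers, 6 or 7 had at least 10 counts in each library of a group, while AQP4 was at 0 in all groups and SOX2 and ALDH1L1 were at 0 in both U87 groups. OLIG2 was at 0 in U251 artesunate libraries and S100B in U87 artesunate libraries. Levels differed: GFAP averaged 57.5 and 67.2 CPM in U251 artesunate and control libraries, and 1.67 and 1.01 CPM in those of U87. NES averaged 141 and 144 CPM in the U251 groups, and 11.9 and 70.9 CPM in the U87 groups, in the same order. The oligodendrocyte markers summed to at most 0.933 CPM in any library, and the endothelium markers to at most 2.99 CPM. The epithelium markers summed to at most 37.2 CPM in U251 libraries, most of it KRT18, and 7.07 CPM in U87 libraries. The 6 microglia and leukocyte markers summed to between 3.71 and 6.46 CPM in U251 artesunate libraries, 0.313 and 2.68 CPM in U251 controls, 22.6 and 54.1 CPM in U87 artesunate libraries and 54.9 and 92.5 CPM in U87 controls, with AIF1 at 0 throughout. Neuron markers summed to between 141 and 226 CPM, 142 and 245 CPM, 55.7 and 64.1 CPM, and 33.7 and 48.8 CPM in the same 4 groups, with STMN2 at 0 throughout. CD68 made up nearly all of the microglia and leukocyte sum, at means of 4.43, 1.53, 33.4 and 74.4 CPM in these groups. PTPRC, ITGAM, CX3CR1 and P2RY12 each averaged at most 0.173 CPM in any group. Of the neuron markers, MAP2 and SYT1 averaged 167 and 35.4 CPM in U251 controls and 14.8 and 2.89 CPM in U87 controls. SNAP25 went the other way, at 1.17 and 22.5 CPM. The part of these markers in the results was not tested.

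The artesunate effect differed between the 2 lines for 4 of the 10 genes. SLC16A1 rose in both. SLC16A3 fell in U87, and its effect differed between the lines. PDK1 rose in U251. PDK4 rose in U87 and fell in U251, where the call was lost on leaving out any 1 of the 6 U251 libraries and with a correction for base composition and length. Both pyruvate carrier subunits rose in U87, calls that were lost with that correction. At an adjusted p under 0.05 (edgeR quasi-likelihood test, Benjamini-Hochberg over all 17150 genes), 2 members were higher and 1 lower with artesunate in U251, where 8.34% of all tested genes were called, 4.09% higher and 4.26% lower. In U87, 4 members were higher and 1 lower, where 58.3% of all genes were called, 29.2% in each direction, so a count of 5 in 10 members is near the background. With the correction 3 members were higher and 4 lower in U87, and over all genes 3383 were higher and 4424 lower, against 5000 and 5005 without it. Of the 4 members whose artesunate effect differed between the lines, 2 had a higher and 2 a lower value in U251, where 49.4% of all genes were called. Over all genes this difference was called upward for 4132 and downward for 4346, and with the correction for 3004 and 2084. With the correction 6 members were called for this difference, 4 upward and 2 downward, against 29.7% of all genes. MPC1 was then not called, while SLC16A1, PDK2 and PDK3 were. Between U251 controls and U87 controls 9 members differed, 4 higher and 5 lower in U251, where 64.8% of all genes were called, 32.5% higher and 32.3% lower. The libraries of the 2 groups did not overlap for 7 members in U251, for 4 in U87 and for all 10 between controls, against 36.8%, 62.4% and 73.6% of all genes. The median log2 fold change of the members was -0.052 in U251 and 0.073 in U87, and the median of all genes was 0 in both. These 3 comparisons share samples: the lines' artesunate effects use the same controls as the comparison of controls.

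**Figure D1:**
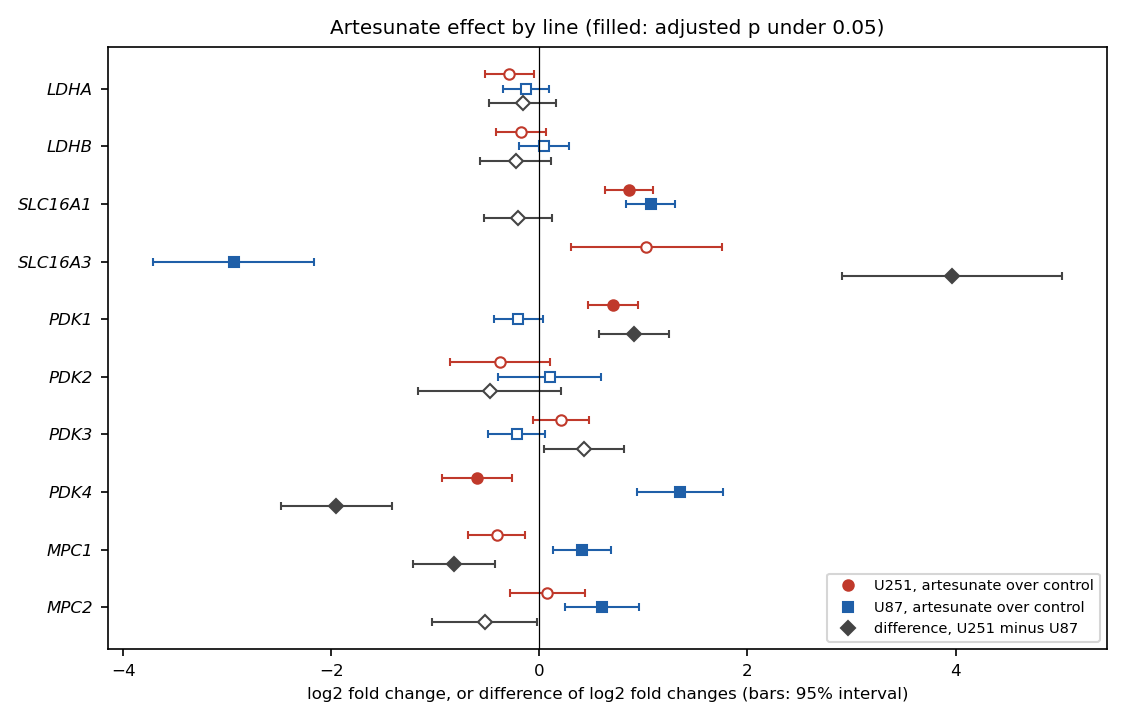
Log2 fold changes of the 10 genes with artesunate over control in U251 (red circles) and U87 (blue squares), and the difference of both, U251 minus U87 (grey diamonds), with 95% intervals; filled symbols have an adjusted p under 0.05. SLC16A1 lies to the right of 0 in both lines (0.86 and 1.07), whereas SLC16A3 is at 1.03 in U251 and -2.94 in U87, and PDK4 at -0.60 and 1.36.

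LDHA was the member that separated the lines most. LDHA (ENSG00000134333, chr11:18394388-18408425, GRCh38, plus strand, protein-coding) encodes the M subunit, the form known for turning pyruvate into lactate. Its level was 18.1, 19.6 and 16.8 CPM in the U251 artesunate libraries, 21.5, 23.6 and 21.5 CPM in the U251 controls, 1768, 1466 and 1397 CPM in the U87 artesunate libraries and 1830, 1538 and 1690 CPM in the U87 controls. Every U251 library was far below every U87 library. U251 controls averaged 22.2 ± 1.22 CPM and U87 controls 1686 ± 146 CPM (SD, n = 3 each), a log2 fold change of -6.25 ± 0.13 (SE; adjusted p = 1.3e-11), or 75.9-fold lower in U251. Of the 17150 tested genes, LDHA ranked 592 from the lowest in this comparison. The U251 values rest on 252 to 388 counts a library and the U87 values on 20064 to 32603. In bulk RNA, fewer cells expressing a gene and less RNA per cell cannot be told apart.

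Artesunate did not change LDHA past the threshold in either line. The log2 fold change was -0.29 ± 0.11 in U251 (adjusted p = 0.13; 95% interval -0.53 to -0.05) and -0.13 ± 0.10 in U87 (adjusted p = 0.3; interval -0.35 to 0.09). The 3 artesunate libraries lay below all 3 controls in U251, and the groups overlapped in U87. With per-library offsets for GC content and the length of the transcript (the GC and length correction) the U87 value was -0.54 (adjusted p = 0.00054), and no alternative without this correction called LDHA in U87. Across the alternatives its adjusted p ran from 0.00054 to 0.65 in U87 and from 0.061 to 0.37 in U251. The 6 processed LDHA pseudogenes, to which reads of LDHA could be assigned, held together 1.18 to 4.72% of the summed counts of LDHA and pseudogenes in U251 libraries and 1.73 to 2.89% in U87 libraries.

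The annotated start of LDHA is shown because it is the member with the widest difference between the lines. The sequence is the 250 bases before and 50 bases after a RefSeq transcript start (GRCh38.p14, 5′ to 3′, plus strand, chr11:18394313-18394612). Capitals mark ACGTG, a core of the hypoxia response element, and its reverse complement CACGT, which overlap in CACGTG. Other forms of that core were not searched.
LDHA: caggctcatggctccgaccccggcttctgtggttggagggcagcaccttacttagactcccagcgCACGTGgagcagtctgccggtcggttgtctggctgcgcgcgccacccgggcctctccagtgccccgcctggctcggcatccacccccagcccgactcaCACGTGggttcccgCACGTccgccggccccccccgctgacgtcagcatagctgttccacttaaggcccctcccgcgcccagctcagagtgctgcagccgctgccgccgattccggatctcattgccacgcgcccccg
This window held 5 matches over both strands. Of 19 such windows at 9 members, 5 held at least 1 match, at LDHA, SLC16A3, PDK1, PDK2 and PDK3, against 21.4% of all 35116 RefSeq windows. TGATGNAA, a core of the C/EBP-ATF response element, was in 0 of the 19 windows and in 3.6% of all windows. The second LDHA window, at a start further into the gene, held no ACGTG. A match describes letters in a window and is not evidence of binding, and its absence is informative about these letters only. SLC16A1 had no entry.

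**Figure D2:**
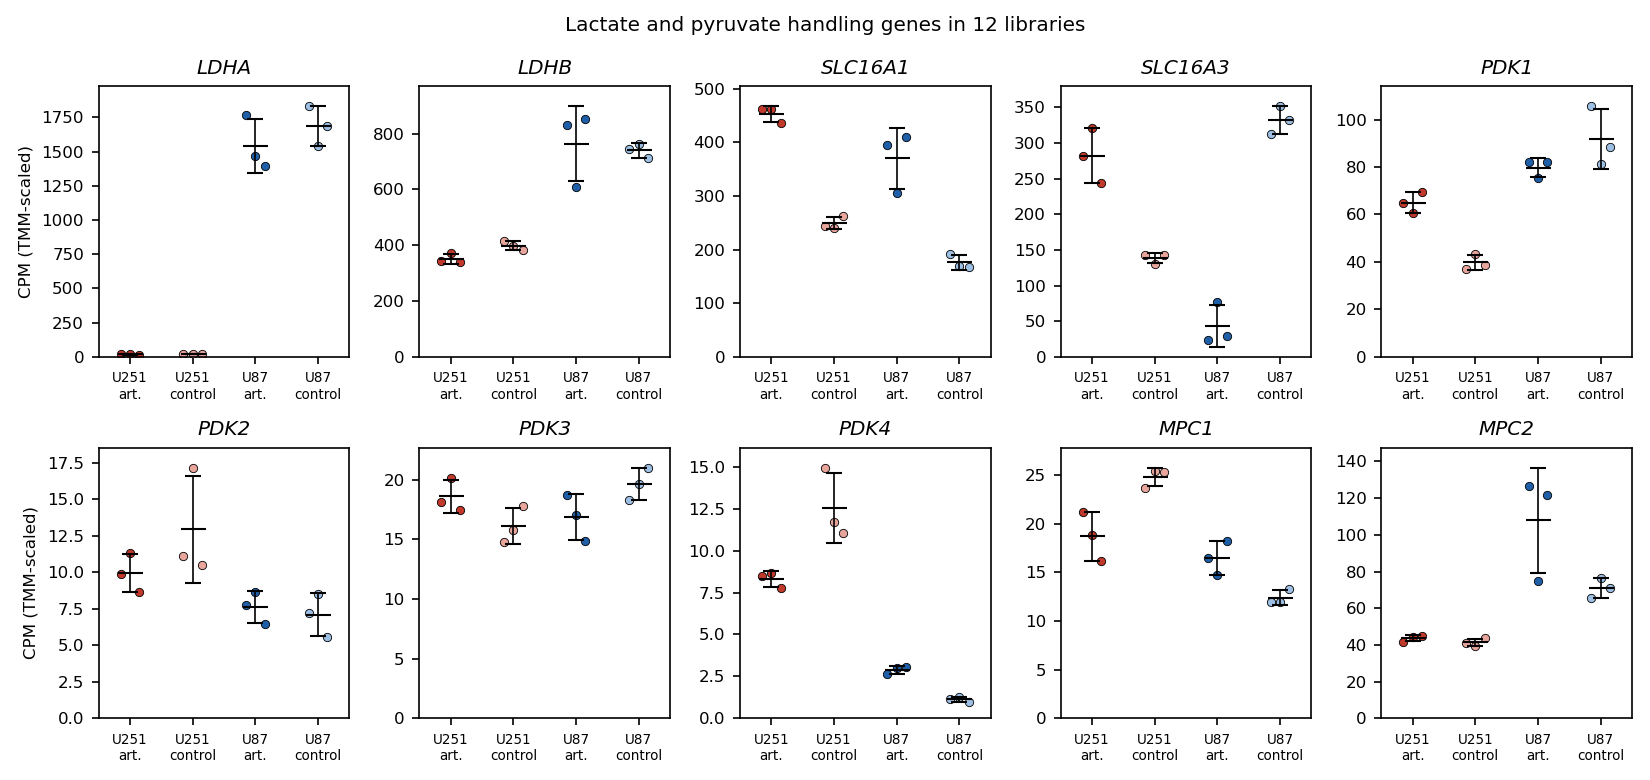
CPM on TMM-scaled library sizes (linear axes from 0) of the 10 genes in the 12 libraries, with artesunate (art.) left of control in each line; points are libraries, and bars give the mean and SD of 3. LDHA lies between 16.8 and 23.6 CPM in U251 libraries and between 1397 and 1830 CPM in U87 libraries, and SLC16A3 lies lowest in the U87 artesunate libraries.

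The genes around LDHA were examined because of that gap; they were chosen after its value was seen, as the 3 nearest tested protein-coding genes on each side. GTF2H1, a subunit of the transcription and repair factor TFIIH, averaged 72.7 ± 8.05 CPM in U251 controls and 71.1 ± 7.79 CPM in U87 controls (SD, n = 3 each; log2 fold change 0.03 ± 0.12, adjusted p = 0.84). TSG101, of the endosomal sorting machinery, averaged 51.2 ± 4.56 CPM in U251 controls and 38.3 ± 2.69 CPM in U87 controls (log2 fold change 0.42 ± 0.13, adjusted p = 0.015). HPS5 was also higher in U251 controls, at 0.51 ± 0.10 (adjusted p = 0.00054), and UEVLD was not called, at -0.05 ± 0.10 (adjusted p = 0.72). The 2 nearest tested protein-coding genes on each side of LDHA, HPS5, GTF2H1, TSG101 and UEVLD, therefore had log2 differences between -0.05 and 0.51, set beside -6.25 at LDHA. The outermost gene on 1 side, SAA1, an acute-phase protein, was at 0.191 ± 0.171 CPM in U251 controls, about the level of 3 counts, and at 5.01 ± 0.942 CPM in U87 controls. SAA1 passed the filter on low counts only through U87 libraries, so its call between controls is not used as support, and no fold is given. SPTY2D1OS, the outermost on the other side, was low in both, at 0.290 and 0.686 CPM, and was not called (adjusted p = 0.12).

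**Figure D3:**
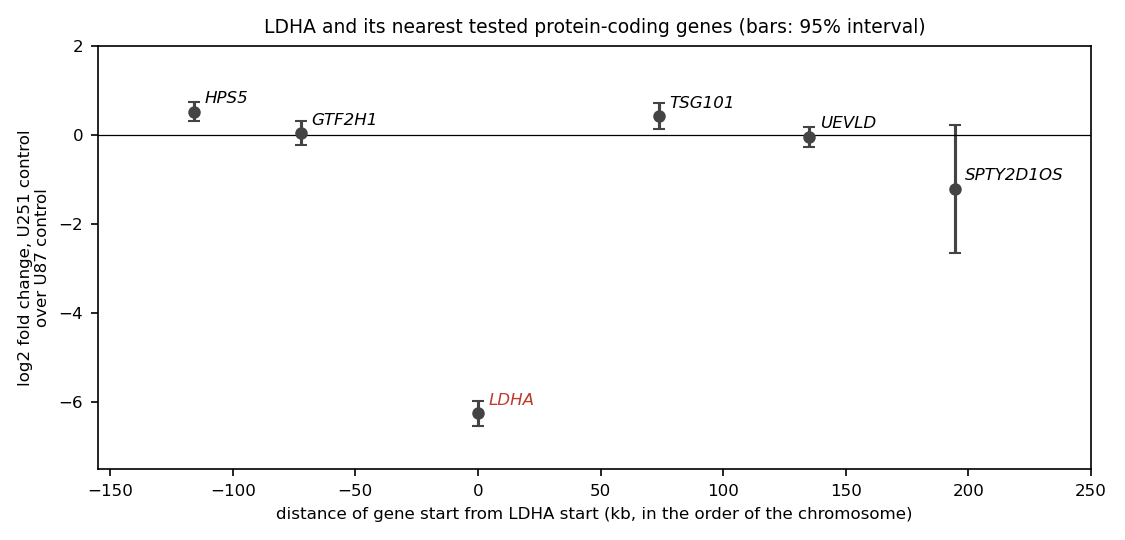
Log2 fold change of U251 control over U87 control (95% interval) against the distance in kb from the start of LDHA, for LDHA and the nearest tested protein-coding genes on each side; SAA1, about the level of 3 counts in U251 controls, is not drawn. HPS5, GTF2H1, TSG101 and UEVLD lie between -0.05 and 0.51 while LDHA is at -6.25.

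LDHB (ENSG00000111716, chr12:21635342-21757857, minus strand) encodes the H subunit, known from tissues that take up and oxidise lactate. It measured 342, 373 and 341 CPM in U251 artesunate libraries, 414, 398 and 384 CPM in U251 controls, 831, 610 and 852 CPM in U87 artesunate libraries and 746, 761 and 711 CPM in U87 controls. LDHB was lower in U251 controls than in U87 controls, at 398.5 ± 14.8 and 739.6 ± 25.6 CPM (log2 fold change -0.89 ± 0.11, adjusted p = 2e-05). With artesunate it was not called in U251, at -0.18 ± 0.11 (adjusted p = 0.36), or in U87, at 0.05 ± 0.11 (adjusted p = 0.74). Without U87 artesunate replicate 2, the lowest of its group, the U87 value was 0.19 (adjusted p = 0.021), and the difference between the lines was -0.37 (adjusted p = 0.0031) in place of -0.23 (adjusted p = 0.25). With the GC and length correction the U87 value was -0.21, not called. The adjusted p over the alternatives ranged from 0.021 to 1 in U87 and from 0.0031 to 0.64 for the difference.

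SLC16A1 rose with artesunate in both lines. SLC16A1 (ENSG00000155380, chr1:112911847-112957013, minus strand) measured 462, 461 and 436 CPM in U251 artesunate libraries and 245, 241 and 263 CPM in U251 controls. In U87 it measured 395, 305 and 411 CPM with artesunate and 192, 169 and 168 CPM in controls. In both lines every artesunate library was above every control, the lowest being replicate 2 of U87. The log2 fold change was 0.86 ± 0.11 in U251 (1.82-fold, adjusted p = 0.00067) and 1.07 ± 0.11 in U87 (2.10-fold, adjusted p = 6.4e-06). The difference between the lines was -0.21 ± 0.15 (adjusted p = 0.27), with a 95% interval of -0.54 to 0.12 that includes 0. That difference changed with the setting: it was 0.38 (adjusted p = 0.015) with the GC and length correction, under which the U87 value was 0.58, still called, and -0.33 (adjusted p = 0.015) without U87 artesunate replicate 2; its adjusted p ranged from 0.015 to 0.69 over the alternatives. U251 controls had more SLC16A1 than U87 controls, at 249.4 ± 11.6 and 176.3 ± 13.5 CPM (log2 fold change 0.50 ± 0.11, adjusted p = 0.0013; 0.21 with the GC and length correction, also called). An antisense gene on the other strand, SLC16A1-AS1, averaged 123 counts in U251 artesunate libraries, 130 in U251 controls, 285 in U87 artesunate libraries and 273 in U87 controls, and without a stated strand setting its reads cannot be told apart from those of SLC16A1.

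SLC16A3 fell in U87, while its value in U251 was positive and not called. SLC16A3 (ENSG00000141526, chr17:82228397-82261129, plus strand) encodes MCT4. It measured 23.1, 77.4 and 29.6 CPM in U87 artesunate libraries and 312, 352 and 332 CPM in U87 controls. Each U87 artesunate library was below all U87 controls, and replicate 2 was the highest of the 3. The log2 fold change was -2.94 ± 0.35 (7.66-fold lower, adjusted p = 2.6e-05), which ranked 275 from the lowest of 17150 genes. Without replicate 2 it was -3.65, and with the GC and length correction -1.95, and the call held under all alternatives (adjusted p between 4.5e-17 and 0.0014). In U251 it measured 282, 321 and 244 CPM with artesunate and 143, 131 and 142 CPM in controls, without overlap. The U251 log2 fold change of 1.03 ± 0.33 (2.04-fold) did not pass the threshold (adjusted p = 0.081). It did pass in a fit of the U251 libraries alone (1.02, adjusted p = 0.0014), and when replicate 2 (1.03, adjusted p = 0.0003) or replicate 1 (1.02, adjusted p = 0.035) of U87 artesunate was left out, fits in which the U251 libraries are the same and the estimated spread differs. DESeq2 (adjusted p = 0.021) and limma on log2(FPKM + 1) (adjusted p = 0.043) also called it. With the GC and length correction the U251 value was 0.73 and not called (adjusted p = 0.056). Its adjusted p across the alternatives ran from 0.0003 to 0.22. The effect in U251 minus that in U87 was 3.96 ± 0.48 (adjusted p = 5.6e-05). It was 4.68 without replicate 2 of U87 artesunate (adjusted p = 7.8e-08) and 2.67 with the GC and length correction, and was called in both.

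Controls also differed in SLC16A3, which averaged 138.5 ± 6.91 CPM in U251 and 331.9 ± 19.8 CPM in U87 (log2 fold change -1.26 ± 0.33, adjusted p = 0.0055). CSNK1D, a casein kinase gene on the other strand that overlaps SLC16A3, averaged 3147 counts in U251 artesunate libraries, 2359 in U251 controls, 1661 in U87 artesunate libraries and 2605 in U87 controls. Its mean count was thus higher with artesunate in U251 and lower with artesunate in U87, and its part in the SLC16A3 counts was not tested. The RefSeq window of SLC16A3 that held ACGTG is shown (GRCh38.p14, plus strand, chr17:82228792-82229091, capitals as above), and 4 other SLC16A3 windows held none. SLC16A3 had opposite estimates in the 2 lines, as did PDK4, whose window held no ACGTG and is not shown.
SLC16A3: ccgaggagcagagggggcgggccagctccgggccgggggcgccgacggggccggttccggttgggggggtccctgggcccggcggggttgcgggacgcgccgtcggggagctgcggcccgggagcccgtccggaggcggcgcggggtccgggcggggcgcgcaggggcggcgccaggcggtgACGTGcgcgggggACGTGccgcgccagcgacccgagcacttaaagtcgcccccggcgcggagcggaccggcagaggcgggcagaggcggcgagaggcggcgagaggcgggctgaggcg

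Relative levels within a library do not depend on library scaling, but levels of different genes depend on gene length, and the length behind the deposited FPKM exceeds the longest annotated transcript for 9 of the 10 members, PDK3 being the exception. Shares are therefore given on FPKM and, as a choice made after these lengths were seen, on counts per kilobase of the longest transcript. LDHA made up 1.39 ± 0.054% of the summed FPKM of LDHA and LDHB in U251 artesunate libraries, 1.496 ± 0.096% in U251 controls, 35.7 ± 4.44% in U87 artesunate libraries and 38.3 ± 2.44% in U87 controls (SD, n = 3 each). By the longest transcript these were 3.18, 3.43, 56.4 and 59.1%. On either length LDHA was a minor part of the pair in every U251 library, and on the longest transcript it was the major part in every U87 library. SLC16A3 made up 6.14 ± 4.89% of the summed FPKM of SLC16A1 and SLC16A3 in U87 artesunate libraries and 49.8 ± 3.23% in U87 controls, a difference of -43.6 percentage points. Its share in U251 was 24.6 ± 2.03% with artesunate and 22.6 ± 0.755% in controls, and the libraries of the 2 groups overlapped. By the longest transcript the U87 difference was -53.1 points. The two-sided exact permutation p was 0.1 for the SLC16A3 share in U87, for the PDK1 share in U251, and for all 3 shares between controls, and this is the smallest p that 3 against 3 libraries allow. It was 0.18 after adjustment over 9 tests, so no share passed the threshold.

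**Figure D4:**
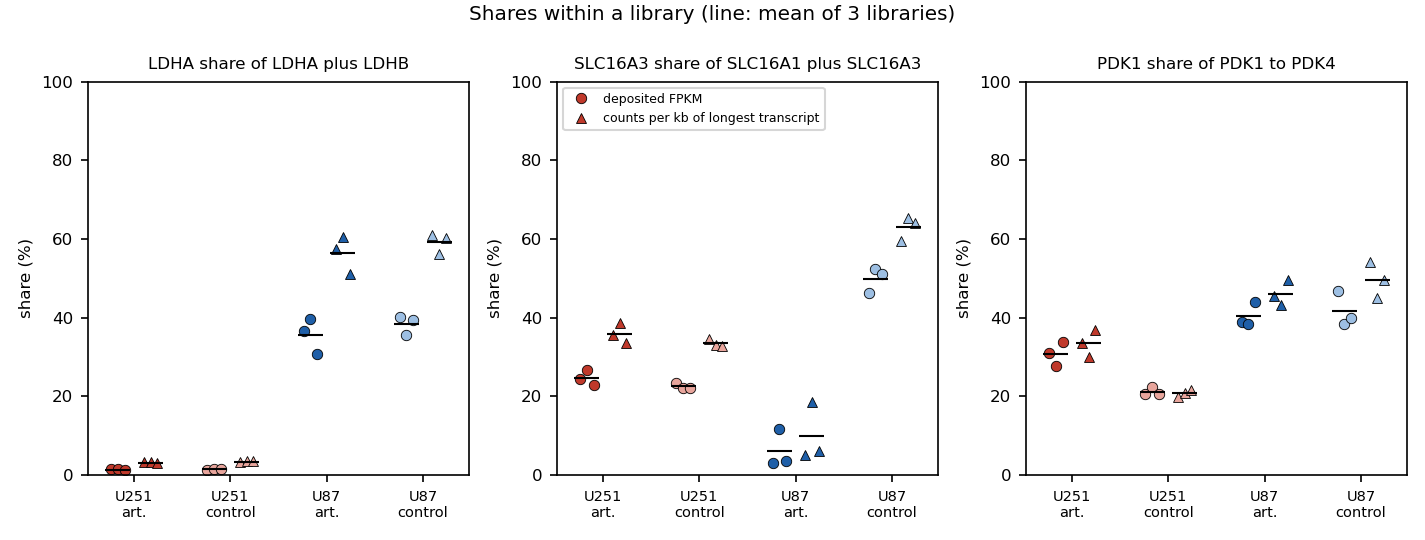
Shares in percent within each library of LDHA in LDHA plus LDHB, of SLC16A3 in SLC16A1 plus SLC16A3, and of PDK1 in PDK1 to PDK4, on deposited FPKM (circles) and on counts per kb of the longest transcript (triangles); lines are means of 3 libraries, and artesunate (art.) stands left of control. The SLC16A3 share lies between 2.99 and 11.8% of FPKM in U87 artesunate libraries and between 46.1 and 52.3% in U87 controls.

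Among the kinases, PDK1 rose in U251 and PDK4 moved in opposite directions. PDK1 (ENSG00000152256, chr2:172555373-172608669, plus strand) is the kinase known from the hypoxia response. It measured 64.9, 60.7 and 69.4 CPM in U251 artesunate libraries and 37.2, 43.5 and 38.7 CPM in U251 controls. In U87 it measured 82.0, 75.4 and 82.0 CPM with artesunate and 106, 81.3 and 88.2 CPM in controls. The groups did not overlap in U251 and did overlap in U87. PDK1 rose in U251 1.63-fold (log2 fold change 0.71 ± 0.11, adjusted p = 0.0026), while the U87 value of -0.20 ± 0.11 was not called (adjusted p = 0.13). The difference between the lines was 0.91 ± 0.15 (adjusted p = 0.00047). With the GC and length correction the U87 value was -0.84 (adjusted p = 2.5e-06) and the difference 1.66. Total counts as library sizes also gave a call in U87 (-0.28, adjusted p = 0.046). Its adjusted p in U87 ran from 2.5e-06 to 0.49 across the alternatives. PDK1 was lower in U251 controls than in U87 controls, at 39.8 ± 3.3 and 91.75 ± 12.5 CPM (log2 fold change -1.20 ± 0.11, adjusted p = 1.4e-06; -1.88 with the correction). PDK1 held 30.9 ± 3.02% of the summed FPKM of the 4 kinases in U251 artesunate libraries, against 21.2 ± 1.03% in U251 controls. An antisense gene that overlaps PDK1, AC078883.1, averaged 57.3 counts in U251 artesunate libraries, 25.3 in U251 controls, 14.3 in U87 artesunate libraries and 48.0 in U87 controls. The PDK1 window that held ACGTG (GRCh38.p14, plus strand, chr2:172555840-172556139) is shown, and the other PDK1 window held none. The windows printed in this report were thus picked with their matches known. The windows of PDK4, MPC1 and MPC2, also called with artesunate, held no ACGTG and are not shown. Nor are the windows with a match at PDK2 and PDK3.
PDK1: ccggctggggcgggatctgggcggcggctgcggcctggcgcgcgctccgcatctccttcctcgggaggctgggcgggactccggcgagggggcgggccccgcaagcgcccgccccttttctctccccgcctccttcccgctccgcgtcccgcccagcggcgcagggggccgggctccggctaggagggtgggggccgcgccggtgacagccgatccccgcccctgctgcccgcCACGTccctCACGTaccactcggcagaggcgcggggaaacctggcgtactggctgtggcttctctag

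PDK4 (ENSG00000004799, chr7:95583499-95596491, minus strand) is the kinase known to be induced in fasting and by FOXO and PPAR factors. It measured 8.47, 8.65 and 7.78 CPM in U251 artesunate libraries and 15.0, 11.7 and 11.02 CPM in U251 controls. In U87 it measured 2.63, 3.00 and 3.08 CPM with artesunate and 1.12, 1.27 and 0.994 CPM in controls. In U251 all artesunate libraries lay below all controls, and in U87 all lay above them. The log2 fold change was -0.60 ± 0.15 in U251 (adjusted p = 0.036) and 1.36 ± 0.19 in U87 (2.56-fold, adjusted p = 7.6e-05). The U251 call was lost when any 1 of the 6 U251 libraries was left out (adjusted p between 0.053 and 0.13), and with the GC and length correction (-0.41, adjusted p = 0.18), without a filter on low counts and in the fit with the replicate block; its adjusted p across the alternatives ran from 0.0073 to 0.18. The U87 value rests on 36 to 48 counts a library with artesunate and 16 to 21 in controls, and was 0.68 with the correction (adjusted p = 0.022, the range over the alternatives being 4.4e-06 to 0.028). The effect in U251 minus that in U87 was -1.95 ± 0.24 (adjusted p = 6.4e-05; -1.09 with the correction, also called). U251 controls had 12.55 ± 2.11 CPM and U87 controls 1.129 ± 0.137 CPM, 11.04-fold higher in U251 (log2 fold change 3.47 ± 0.18, adjusted p = 1.1e-08). Among the members, LDHA and PDK4 thus had the widest differences between controls, with opposite signs.

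PDK2 and PDK3 did not change past the threshold with artesunate. PDK2 (ENSG00000005882, chr17:50094737-50112152, plus strand), a broadly expressed kinase, ranged from 8.65 to 11.3 CPM in U251 artesunate libraries, 10.5 to 17.2 CPM in U251 controls, 6.47 to 8.62 CPM in U87 artesunate libraries and 5.59 to 8.52 CPM in U87 controls. Its log2 fold changes were -0.38 ± 0.22 in U251 (adjusted p = 0.33) and 0.10 ± 0.22 in U87 (adjusted p = 0.74), and the groups overlapped in both lines. PDK2 was higher in U251 controls than in U87 controls, by 0.87 ± 0.22 (adjusted p = 0.0046). PDK3 (ENSG00000067992, chrX:24465221-24539837, plus strand) ranged from 17.5 to 20.1 CPM in U251 artesunate libraries, 14.8 to 17.8 CPM in U251 controls, 14.9 to 18.7 CPM in U87 artesunate libraries and 18.3 to 21.0 CPM in U87 controls. Its log2 fold changes were 0.21 ± 0.12 in U251 (adjusted p = 0.34) and -0.22 ± 0.12 in U87 (adjusted p = 0.15), and it was the single member not called between controls (-0.29 ± 0.12, adjusted p = 0.06). That value was called lower in U251 by DESeq2 (adjusted p = 0.045), with total counts (adjusted p = 0.041), by limma on FPKM, in a fit of the controls alone and with the GC and length correction (-0.60), and its adjusted p over the alternatives ranged from 0.0014 to 0.18. With the GC and length correction PDK2 was called higher in U87 (0.94, adjusted p = 0.0039) and PDK3 lower (-0.71, adjusted p = 0.00084), and both differences between the lines were called (-1.54 for PDK2 and 1.01 for PDK3). The adjusted p in U87 ranged over the alternatives from 0.0035 to 1 for PDK2 and from 0.00084 to 0.40 for PDK3. Limma on log2(FPKM + 1) also called PDK3 lower in U87. The PDK3 difference between the lines, 0.43 ± 0.17 (adjusted p = 0.062), was called under several settings, with an adjusted p from 0.0016 to 0.14.

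The pyruvate carrier subunits rose in U87. MPC1 (ENSG00000060762, chr6:166364919-166383013, minus strand) measured 16.5, 14.7 and 18.2 CPM in U87 artesunate libraries and 11.9, 11.96 and 13.2 CPM in U87 controls, without overlap. Its log2 fold change there was 0.41 ± 0.13 (adjusted p = 0.015), a call that was lost with the GC and length correction (0.01, adjusted p = 0.99), with no filter on low counts (adjusted p = 0.063) and without U87 artesunate replicate 3 (0.33, adjusted p = 0.059); the range over the alternatives was 0.0061 to 1. In U251 it measured 21.2, 18.8 and 16.1 CPM with artesunate and 23.7, 25.4 and 25.3 CPM in controls. Its log2 fold change of -0.41 ± 0.13 there missed the threshold (adjusted p = 0.068). That value was called by DESeq2 (adjusted p = 0.019), with total counts as the library sizes (adjusted p = 0.040), in a fit of the U251 libraries alone (adjusted p = 0.047), with replicate 2 of U87 artesunate left out (adjusted p = 0.033) and by limma on FPKM, and its adjusted p ranged from 0.017 to 0.23 over the alternatives. The effect in U251 minus that in U87 was -0.82 ± 0.18 (adjusted p = 0.0025), and -0.28 with the GC and length correction (adjusted p = 0.24, in a range from 0.0001 to 0.26). U251 controls had more MPC1 than U87 controls, at 24.79 ± 0.954 and 12.37 ± 0.755 CPM (log2 fold change 1.00 ± 0.13, adjusted p = 2.4e-05).

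MPC2 (ENSG00000143158, chr1:167916729-167937040, minus strand) measured 127, 74.7 and 122 CPM in U87 artesunate libraries and 65.5, 76.6 and 71.2 CPM in U87 controls. Replicate 2 of the artesunate group lay among the controls and the other two above them. The log2 fold change was 0.60 ± 0.16 (1.52-fold, adjusted p = 0.007), and 0.81 without replicate 2. With the GC and length correction it was 0.07 (adjusted p = 0.67, in a range from 8.7e-06 to 0.77). In U251 MPC2 measured 41.8, 44.5 and 44.7 CPM with artesunate and 41.0, 39.7 and 43.7 CPM in controls, which overlap (log2 fold change 0.08 ± 0.16, adjusted p = 0.84). The difference between the lines was not called (-0.53 ± 0.23, adjusted p = 0.078), but was without replicate 2 of the U87 artesunate group (-0.73, adjusted p = 0.00024, in a range from 0.00024 to 0.58). MPC2 was lower in U251 controls than in U87 controls, opposite to MPC1, at 41.43 ± 2.03 and 71.07 ± 5.54 CPM (log2 fold change -0.78 ± 0.16, adjusted p = 0.0013). DCAF6, on the other strand and overlapping MPC2, averaged 2547 counts in U87 artesunate libraries and 1696 in U87 controls.

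The GC and length correction moved the U87 values in both directions. The 2 members with the highest GC content of the longest transcript, SLC16A3 (62.65%) and PDK2 (59.8%), were shifted up by the correction in U87, and the 8 others, at 39.43 to 46.49%, were shifted down. In U251 the shifts were opposite: SLC16A3 went from 1.03 to 0.73 and PDK2 from -0.38 to -0.60, and the 8 others went up. Both sets of shifts enter the differences between the lines. Over all genes, the correction left 45.5% of genes called in U87, against 58.3% without it, and 8.62% in U251, against 8.34%. SLC16A1, SLC16A3 and PDK4 kept their direction and their calls in U87 under it, with smaller changes. The cause of these shifts was not tested.

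**Figure D5:**
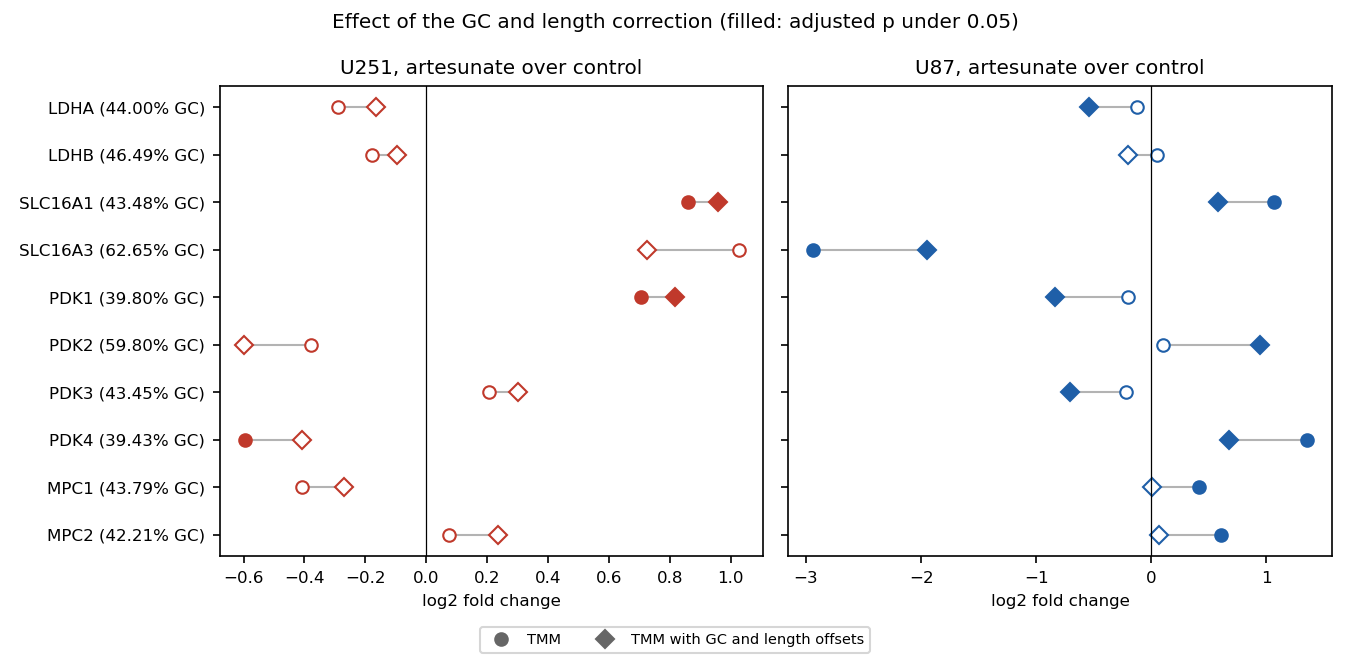
Log2 fold change of artesunate over control for each member in U251 (left) and U87 (right), with TMM scaling alone (circles) and with per-library offsets for GC content and transcript length (diamonds); filled symbols have an adjusted p under 0.05, and the horizontal scales differ. In U87 the diamonds of SLC16A3 and PDK2 lie to the right of their circles and those of the other 8 genes to the left.

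By FPKM, LDHB was the most abundant member in all 4 groups, from 79.4 ± 3.38 FPKM in U251 artesunate libraries to 174 ± 4.51 FPKM in U87 controls. LDHA was the second in both U87 groups, at 93.9 ± 10.7 FPKM with artesunate and 108 ± 10.1 FPKM in controls, and the ninth of 10 in both U251 groups, at 1.12 ± 0.074 FPKM with artesunate and 1.40 ± 0.076 FPKM in controls. Per kilobase of the longest transcript it was the sixth in both U251 groups, at 7.52 ± 0.588 CPM per kb with artesunate and 9.19 ± 0.507 in controls. On the same scale LDHA came first in U87 controls, at 698 ± 60.4 CPM per kb, ahead of LDHB at 481 ± 16.6. With artesunate these 2 genes were closer, at 639 ± 81.7 and 497 ± 87.3 CPM per kb, and their ranges, 578 to 732 and 397 to 554, did not overlap. PDK4 was the lowest member in both U87 groups on either scale, at 0.409 ± 0.041 FPKM with artesunate and 0.167 ± 0.019 FPKM in controls. SLC16A1 was the second most abundant member in both U251 groups on either scale, at 48.6 ± 0.937 FPKM with artesunate and 27.4 ± 1.32 FPKM in controls.

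Other genes of the pathway, from lists drawn up by function, were read from the same test. Of 7 other lactate or pyruvate carriers and partners 2 were tested. SLC16A7 (MCT2, a carrier with high affinity for pyruvate) rose in U87, at 83.8 ± 11.4 CPM with artesunate and 9.33 ± 2.01 CPM in controls (log2 fold change 3.16 ± 0.18, adjusted p = 1.4e-07; 2.12 with the GC and length correction). The effect in U251 minus that in U87 was -3.76 ± 0.27 for SLC16A7 (adjusted p = 2.5e-06). It was lower in U251 controls than in U87 controls (log2 fold change -1.07 ± 0.19, adjusted p = 0.00033; -2.00 with the correction). BSG, the chaperone of MCT1 and MCT4, was not called with artesunate in either line (adjusted p = 0.31 in U251 and 0.26 in U87), but in U87 it was called at 0.75 with the correction and at -0.47 without artesunate replicate 2. BSG is named outside the rule, after its values were seen.

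Of 4 other lactate dehydrogenases only LDHD, which acts on D-lactate, was tested. It was at 0.771 ± 0.37 CPM in U87 artesunate libraries and 1.75 ± 0.164 CPM in U87 controls (log2 fold change -1.17 ± 0.45, adjusted p = 0.043), a call lost with the correction (-0.07). LDHD averaged 0.020 CPM in U251 controls, below the level of 3 counts. It passed the filter on low counts only through U87 libraries, so its call between controls is not used as support, and no fold is given.

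Of 9 genes of the pyruvate dehydrogenase complex and its phosphatases 8 were tested, and none was called in U251. DLD came nearest there, at -0.34 (adjusted p = 0.052), and was called lower without U87 artesunate replicate 2 (adjusted p = 0.012) and with total counts as library sizes (adjusted p = 0.022). In U87, 2 rose and 1 fell, where 58.3% of all genes were called. DLD, the dihydrolipoamide dehydrogenase subunit, was at 174 ± 19.7 CPM in U87 artesunate libraries and 118.7 ± 7.87 CPM in U87 controls (log2 fold change 0.55 ± 0.10, adjusted p = 0.00044), and was not called with the correction (-0.15). PDHA1, the subunit that the kinases phosphorylate, fell (log2 fold change -0.41 ± 0.12, adjusted p = 0.0093; -0.69 with the correction). The artesunate effect differed between the lines for 3 of the 8, with PDHA1 upward (0.42 ± 0.16, adjusted p = 0.05, under the threshold before rounding) and 2 downward, led by DLD (-0.89 ± 0.14, adjusted p = 0.00026; -0.01 with the correction). Between controls 5 of the 8 were higher in U251 and 1 lower, led by PDHB (0.97 ± 0.12, adjusted p = 1.8e-05) and PDHA1 (-0.33 ± 0.12, adjusted p = 0.025). Shares of all tested genes called were 8.34% in U251, 49.4% for the difference and 64.8% between controls.

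Of 11 other enzymes that make or use pyruvate or D-lactate 8 were tested. PKM, the pyruvate kinase of most tissues, was the 1 gene called in U251, at 4126 ± 413 CPM with artesunate and 2963 ± 155 CPM in controls (log2 fold change 0.48 ± 0.13, adjusted p = 0.045; 0.40 and not called with the correction, and adjusted p = 0.055 with total counts). GLO1 (-0.32, adjusted p = 0.057) and ME2 (-0.29, adjusted p = 0.064) were not called in U251, but both were called lower without U87 artesunate replicate 2 (adjusted p = 0.012 and 0.036) and with total counts (adjusted p = 0.026 and 0.041). DLD and ME2 are named outside the rule for U251, after their values were seen. PKM fell in U87, at 1729 ± 370 CPM with artesunate and 3237 ± 138 CPM in controls (log2 fold change -0.91 ± 0.13, adjusted p = 0.0001; -0.64 with the correction), and the difference between the lines was 1.38 ± 0.18 (adjusted p = 0.0001). Of the 8, 2 rose and 4 fell in U87, where 58.3% of all genes were called. GLO1, which detoxifies methylglyoxal, led the higher ones (0.65 ± 0.10, adjusted p = 0.00012), but was at 0.00 with the correction. The effect in U251 minus that in U87 was called for 4 genes upward, led by PKM, and 2 downward, led by GLO1 (-0.97 ± 0.13, adjusted p = 0.00013; -0.11 with the correction). Between controls 2 were higher in U251, led by GLO1 (1.48 ± 0.10, adjusted p = 7.8e-08), and 3 lower. By the smallest p the lower ones were led by ME3, a malic enzyme at 0.084 CPM in U251 controls and 1.13 CPM in U87 controls. ME3 was below the level of 3 counts in U251 controls. It passed the filter on low counts only through U87 controls, so its call is not used as support. Shares of all tested genes called were 8.34% in U251, 49.4% for the difference and 64.8% between controls.

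Of 11 known regulators of these genes 10 were tested. EPAS1 (HIF-2α) rose in U251, at 67.6 ± 5.72 CPM with artesunate and 48.3 ± 3.02 CPM in controls (log2 fold change 0.48 ± 0.09, adjusted p = 0.0068). FOXO1 fell in U251, at 37.7 ± 1.39 CPM with artesunate and 57.9 ± 3.43 CPM in controls (log2 fold change -0.62 ± 0.11, adjusted p = 0.0059). In U87, 4 rose and 3 fell, where 58.3% of all genes were called. FOXO3 led the higher ones (0.58 ± 0.07, adjusted p = 4.1e-05), and PPARD the lower ones (-0.61 ± 0.13, adjusted p = 0.0013). With the correction PPARD was at 0.14 and not called. EPAS1 fell in U87 (-0.33 ± 0.09, adjusted p = 0.006), a call lost with the correction (-0.15). HIF1A rose in U87 (0.58 ± 0.16, adjusted p = 0.0093), a call also lost with the correction (-0.28), and was not called in U251 (adjusted p = 0.7). Between controls HIF1A was lower in U251 (-1.09 ± 0.16, adjusted p = 9.9e-05). HIF1A, and EPAS1 in U87, are named outside the rule, after their values were seen. FOXO1 was 18.5 ± 0.582 CPM in U87 artesunate libraries and 10.9 ± 1.78 CPM in U87 controls (0.76 ± 0.12, adjusted p = 0.00015), so that its effect in U251 minus that in U87 was -1.38 ± 0.16 (adjusted p = 4.2e-05), and EPAS1 had an opposite difference of 0.81 ± 0.12 (adjusted p = 0.00024). Between controls 4 regulators were higher in U251 and 2 lower, led by FOXO1 (2.41 ± 0.12, adjusted p = 6.7e-09) and EPAS1 (-3.16 ± 0.09, adjusted p = 1.4e-10). Of all tested genes, 64.8% were called between controls, so these counts are near the background.

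For SLC16A3 and PDK4, the genes whose pattern over the 12 libraries was nearest by Euclidean distance of centred log2 CPM are named as a description. Nearest to SLC16A3 were ZNF865, JSRP1 and AURKAIP1, at distances of 0.656, 0.807 and 0.887. Their log2 fold changes were 0.63, 1.40 and 0.47 in U251 and -2.83, -4.18 and -3.00 in U87. Nearest to PDK4 were MALT1, SLC35D2 and ZMAT1, at 0.811, 0.812 and 0.849, with log2 fold changes of -0.30, -0.25 and -0.66 in U251 and 1.01, 1.30 and 1.85 in U87.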

How the data were processed

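Per the submitters' processing notes and the series text, fastp cleaned the reads, HISAT2 2.1.0 did the alignment to GRCh38, StringTie 1.3.3b did the quantification and edgeR 3.30.3 the group tests. The deposited table holds whole-number counts per gene and library, not normalized; the counting step and its strand setting are not given in the sources used here. It also holds FPKM values, which the series text describes as TMM-normalized. Tested on the file, the deposited FPKM equal the count divided by the library total and 1 fixed length per gene (spread at most 0.1% in all 8695 genes with at least 100 counts in every library), with no TMM factor. That length exceeded the longest GENCODE 29 transcript in 95.3% of these genes, so FPKM understate levels of some genes relative to others.

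Counts were fitted in R 4.3.3 with edgeR 4.0.16 (filterByExpr, minimum count 10, minimum total 15; TMM; quasi-likelihood; 1 mean for each of 4 groups over 12 libraries; common biological coefficient of variation 0.183), with Benjamini-Hochberg adjustment over all 17150 tested genes and calls at an adjusted p under 0.05. Values after ± are SE for log2 fold changes (from the fold change and the root of its F statistic) and SD of 3 libraries for levels and shares. Intervals of 95% use the t distribution of the fit. The scripts were tested on simulated data. Alternatives were total counts, DESeq2 1.42.0, no filter, limma 3.58.1 on log2(FPKM + 1) and log2(FPKM + 0.1), loess offsets for GC content and transcript length (span 0.5; 99.6% of tested genes had values), a replicate block (within each line, centred on the line's mean), only the groups compared, and leaving out each library. The GC and length values came from GENCODE 29, where 58039 of the 58302 identifiers were found. Same-numbered libraries showed no strong shared deviation, so the numbers were not taken as pairs, although this cannot exclude pairing. No replicate pair agreed within sampling noise.

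The members and lists were chosen with earlier results of these data known. All 10 members are named in every comparison; from each functional list, the called gene with the smallest p in each direction is named, and counts for the rest. For the 2 members with the smallest p in the difference between the lines, the 3 protein-coding genes with the nearest profile are named.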

Additional observations from a re-analysis of the deposited data

Results flagged for a closer look

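The artesunate effect of 4 members differed between the lines by the test of the difference itself, U251 minus U87 (edgeR, adjusted over all tested genes), while the labelled dose differed as well. The share of all genes called for this difference was 49.4%, so 4 of the 10 members is near the background. SLC16A3 differed by 3.96 ± 0.48 on the log2 scale (adjusted p = 5.6e-05), with artesunate libraries above controls in 3 of 3 in U251 and below them in 3 of 3 in U87. Its own value in U251 was not called (adjusted p = 0.081). PDK4 differed by -1.95 ± 0.24 (adjusted p = 6.4e-05), with artesunate libraries below controls in U251 and above them in U87. Such a lack of overlap was found for 36.8% of all genes in U251 and 62.4% in U87. PDK1 differed by 0.91 ± 0.15 (adjusted p = 0.00047). MPC1 differed by -0.82 ± 0.18 (adjusted p = 0.0025), which did not pass with the GC and length correction (-0.28). With that correction the differences of SLC16A1 (0.38), PDK2 (-1.54) and PDK3 (1.01) were called.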

How the results depend on the processing

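Of the alternatives to the 10 members' log2 fold changes over 4 comparisons, 780 kept direction and call, 49 gained a call, 19 lost one and 22 reversed. All 22 were of values that were not called, and the SLC16A1 difference between lines was called after reversing. LDHB in U87 was -0.0292 with total counts, -0.0028 with no filter, and -0.04 with limma on log2(FPKM + 1), with and without a filter, and on log2(FPKM + 0.1) (-0.0408 and -0.0411). It was -0.21 with GC and length offsets, and -0.21 with these and the replicate block. The LDHA difference between lines was 0.0224 with limma on log2(FPKM + 1), with and without a filter. With GC and length offsets the differences were 0.38 (LDHA), 0.11 (LDHB), 0.38 (SLC16A1) and 0.17 (MPC2), and with the replicate block added 0.38, 0.11, 0.38 and 0.17. Leaving out single libraries gave -0.0403 to 0.19 for LDHB and -0.0752 to 0.25 for PDK2 in U87.

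The count of members called in U251 (3) was 5 with DESeq2, with limma on log2(FPKM + 1) and with the compared groups alone, and 2 to 5 with a library left out; the difference between lines gave 4 to 7, highest without U87 artesunate replicate 2. All genes called in U251 (1431) were 2328 with DESeq2, 864 with no filter, 2154 with limma on log2(FPKM + 1), 2721 with the compared groups alone, 873 with GC and length offsets and replicate block, and 647 to 2623 with a library left out. For the difference between lines (8478) they were 5088 with GC and length offsets, 4371 with the block added, and 7744 to 9278 with a library left out. The U251 split, 701 higher and 730 lower, was 617 and 976 with total counts, 821 and 1333 with limma on log2(FPKM + 1), and 516 and 348 with no filter.

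With the replicate block 2 members were called in U251, 5 in U87, 4 for the difference and 9 between controls. PDK4 in U251 (-0.59, adjusted p = 0.073) was then not called. With GC and length offsets added, SLC16A1 between controls (0.21, adjusted p = 0.051) was not called. Deviations of same-numbered libraries correlated at -0.009 to 0.053, and those of differently numbered ones at -0.085 to 0.044. No strong shared deviation was seen, but with 3 libraries a group this check cannot exclude pairs.

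On counts the LDHA share between controls differed by -64.2 points (-55.7 per longest transcript), the SLC16A3 share in U87 by -54.5 (-53.1), the PDK1 share by 14.9 in U251 and by -27.6 between controls (-28.8). The PDK1 share in U87 ran from -2.87 to 1.38 points with a library left out. PDK4 in U87, at 16 to 48 counts a library, rests on the fewest counts. The cause of these changes was not tested.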
